A study of Mus with 3 samples.

Results

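The genes described here are 9 components of TGF-β signalling: the ligand Tgfb1, the receptors Tgfbr1 and Tgfbr2, the signal-transducing Smad2, Smad3 and Smad4, the inhibitory Smad7, and the corepressors Ski and Skil. They were taken by name, with earlier results of these data known. They are 9 of the 32285 genes counted in a single-cell RNA-seq library of MC38 tumors, a transplanted mouse colon carcinoma line. All 9 were followed in CTLs, in Foxp3+ and Foxp3- CD4 T cells, in macrophages and in Sparc+ cells, each in 3 genotypes. The tumors were collected on day 16. WT cells came from control mice, but the strain of control used for this tumor and the number of mice per genotype were not given in the sources used here. RARα-KO mice were dLck-Cre × Rara L/L, so that the deletion depends on the distal Lck promoter, which is active in mature T cells. RARα-TG mice carried CD2-Rara, in which the CD2 promoter drives Rara in T cells. For every genotype, 30000 CD45.2+ CD3+ T cells were sorted together with 10000 unselected tumor cells, marked with a hashtag antibody, and pooled into 1 library made with the 5′ kit of 10x Genomics. Each genotype was therefore 1 sample, no test between genotypes could be made, and the intervals given below cover counting error only.

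TGF-β is a cytokine that restrains T cell activation, promotes the development of regulatory T cells and the residency of T cells in tissue, and is abundant in many tumors. It is secreted in a latent form, is released by integrins and other proteins, and binds TGFBR2, which recruits and phosphorylates TGFBR1. The receptor complex phosphorylates SMAD2 and SMAD3, which enter the nucleus with SMAD4 and regulate transcription. SMAD7 is induced by the signal and blocks the receptor, and SKI and SKIL repress the transcription of SMAD targets.

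The genes lie on 5 chromosomes of the mouse assembly GRCm38. Tgfb1 spans 25687002 to 25705077 on chromosome 7. Tgfbr1 (47353222 to 47414926) and Ski (155154075 to 155222535) are on chromosome 4, and Tgfbr2 (116087695 to 116175363) and Smad3 (63646766 to 63757994) are on chromosome 9. Smad4 (73634790 to 73703791), Smad7 (75367365 to 75395935) and Smad2 (76241090 to 76311748) are on chromosome 18. Skil spans 31095058 to 31122923 on chromosome 3.

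Of 5585 cells, 1927 carried the WT hashtag, 2103 the RARα-KO hashtag and 895 the RARα-TG hashtag. There were 842 WT, 1180 RARα-KO and 107 RARα-TG CTLs (T cells with Cd8a and no Cd4). The Foxp3+ CD4 T cells numbered 120, 79 and 150, the Foxp3- CD4 T cells 95, 166 and 111, the macrophages 77, 127 and 35, and the Sparc+ cells 273, 128 and 19, in the same order of genotypes. Rara was 198 CPM (UMIs of the gene per 1000000 UMIs) in RARα-TG CTLs against 84.9 CPM in WT, while RARα-KO CTLs stood at 78.5 CPM, and the deleted allele still gives a transcript that lacks an exon. The Rara level thus separates RARα-TG from WT T cells and does not check the RARα-KO label. The Sparc+ cells take the place of MC38 cells, because the epithelial markers Epcam, Krt7, Krt8, Krt18, Krt19, Krt20 and Cdh1 summed to 1.27, 1.18 and 2.67 CPM, while the fibroblast markers summed to 2304, 2119 and 2928 CPM. They were uneven: in finer clusters, 94 of the Sparc+ cells, led by Col3a1 and Dcn, summed to 8587 CPM of fibroblast markers and the other 326 to 932 CPM, with epithelial markers at 1.74 and 1.19 CPM. Of the other finer clusters, 1 was led by Cryab, Slurp1 and Sox9 and another by Ube2c, Anln and Cenpf. The keratin gene Krt14, not in the marker list, was among the 10 leading genes of the former. Whether these are MC38 cells was not tested. Sparc+ cells were far deeper than T cells, with a median of 29930 UMIs against 5665.5 in WT CTLs. Hashtag signals were weaker in WT: the largest hashtag held a median of 75.7% of hashtag UMIs in WT macrophages and 94.8% in RARα-KO macrophages. In Sparc+ cells these values were 70.1% and 92.9%. When a share of 80% or more was required, 22 of the 77 WT macrophages and 73 of the 273 WT Sparc+ cells kept their genotype. WT T cells were affected as well: 546 of 842 CTLs, 97 of 120 Foxp3+ and 56 of 95 Foxp3- CD4 T cells kept their genotype. So did 200 of the 382 WT T cells outside these subsets, and 8 of the 19 RARα-TG Sparc+ cells. All ratios to WT carry this limit, and those in macrophages and Sparc+ cells carry it most. Under this assignment, Tgfb1 was at 766 CPM in WT CTLs and 527 CPM in RARα-KO CTLs.

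Tgfb1, the ligand, was lower in RARα-KO than in WT in CTLs and in both CD4 subsets, but not in the T cells left outside these subsets. WT CTLs were at 771 CPM (95% Poisson interval 748 to 794), RARα-KO CTLs at 525 CPM (509 to 541) and RARα-TG CTLs at 493 CPM (436 to 557). Both genetically altered groups of CTLs lay below the WT group, and their intervals did not overlap with it. The log2 ratio to WT was -0.55 (counting interval -0.62 to -0.49) for RARα-KO, or 1.47-fold lower, and -0.64 (-0.83 to -0.46) for RARα-TG, or 1.56-fold lower.

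In Foxp3+ CD4 T cells, the Tgfb1 levels of WT, RARα-KO and RARα-TG were 604, 419.7 and 719 CPM. In Foxp3- CD4 T cells, they were 711, 516 and 965 CPM. RARα-KO was thus the lowest genotype and RARα-TG the highest in both CD4 subsets, unlike in CTLs, where RARα-TG was also below WT. The log2 ratios of RARα-KO to WT were -0.52 (-0.78 to -0.27) in Foxp3+ and -0.46 (-0.67 to -0.25) in Foxp3- cells. Those of RARα-TG to WT were 0.25 (0.06 to 0.45) and 0.44 (0.23 to 0.65). Of the RARα-TG Foxp3+ cells, 99 of 150 were in a cluster led by Rln3, Klrg1 and Laptm4b, which held 4 of 120 WT cells. Within the cluster led by Foxp3, Lrrc32 and Tnfrsf4, which held 108 WT, 74 RARα-KO and 44 RARα-TG cells, the ratios were -0.46 (-0.73 to -0.19) for RARα-KO and 0.28 (-0.03 to 0.57) for RARα-TG. Within the Foxp3- cluster led by Tnfsf8, Tnfsf11 and Cd4, they were -0.59 (-0.86 to -0.32) and 0.81 (0.53 to 1.08). In the other Foxp3- cluster with enough cells, led by S1pr1, Tcf7 and Ramp3, the RARα-KO ratio was 0.43 (-0.31 to 1.18), from 26 RARα-KO and 23 WT cells. The lower Tgfb1 of RARα-KO was thus seen in 1 of the 2 Foxp3- clusters that could be compared.

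T cells with neither Cd4 nor Cd8a UMIs, or with Cd4 beside a CD8 gene, were in no subset. WT had 382 of them, RARα-KO 289 and RARα-TG 405. Tgfb1 there had levels of 445, 519 and 680 CPM, in the same order of genotypes, so that both altered genotypes lay above WT. The log2 ratios to WT were 0.22 (0.05 to 0.40) and 0.61 (0.46 to 0.77). These were shallow cells, with a median of 2959.5 UMIs in WT. They also differed in make-up: Foxp3 was found in 31.4% of the WT, 17.6% of the RARα-KO and 48.6% of the RARα-TG cells. The part of this make-up in the Tgfb1 ratios was not tested.

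**Figure D1:**
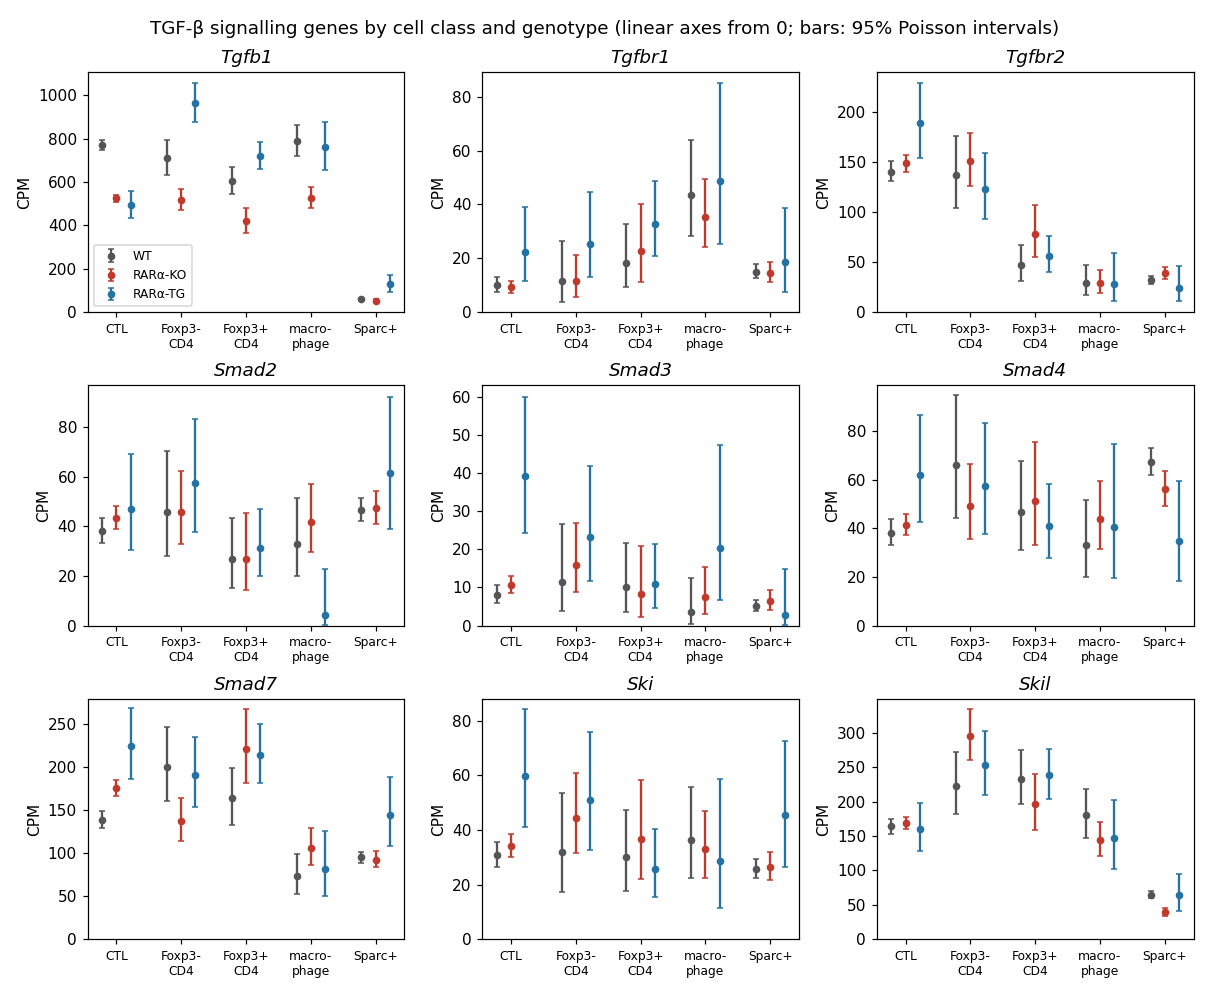
Level of each of the 9 genes in CPM (vertical axes, linear from 0) by cell class (horizontal axes) in WT (gray), RARα-KO (red) and RARα-TG (blue), with 95% Poisson intervals as bars. Tgfb1 in RARα-KO lies below WT in CTLs, both CD4 subsets and macrophages, the last not when genotypes are read by hashtag share, and Tgfbr2 is higher in CTLs and Foxp3- CD4 T cells than in Foxp3+ CD4 T cells, macrophages and Sparc+ cells.

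In macrophages of WT, RARα-KO and RARα-TG tumors, Tgfb1 was at 789.7, 527 and 759.8 CPM. The log2 ratio of RARα-KO to WT was -0.58 (-0.77 to -0.40). This difference depended on how the genotype was read: when cells were assigned by the largest share of hashtag UMIs, 22 of the 77 WT macrophages were kept, their Tgfb1 was at 521 CPM, RARα-KO macrophages were at 517 CPM, and the ratio was -0.01. Markers of T cells also summed to 151, 636 and 114 CPM in these macrophages, and their part in the Tgfb1 level was not tested. In contrast, the ratio in CTLs stayed between -0.60 and -0.37 over 9 other ways of processing the data, and was -0.42 when cells were thinned to 1000 UMIs and -0.34 outside the cluster led by Gzmf, Gzmd and Gzme.

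Sparc+ cells had the lowest Tgfb1 of the 5 classes, with 61.6, 52.8 and 128 CPM. Compared with CTLs of the same genotype, the log2 ratios were -3.64, -3.31 and -1.95. Per cell the gap was smaller, with 1.95 UMIs in a WT Sparc+ cell and 5.13 in a WT CTL. The RARα-TG value rests on 48 UMIs in 19 cells, in which markers of T cells summed to 200 CPM, against 18.5 CPM in WT and 64.8 CPM in RARα-KO, and markers of regulatory T cells to 136 CPM, against 10.3 and 7.07 CPM. The ratio of RARα-TG to WT in Sparc+ cells was 1.06 (0.60 to 1.48) and was 0.55 without the cells that had a T cell receptor clonotype. The part of T cell RNA in it was otherwise not tested.

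Tgfbr1, the receptor kinase that phosphorylates Smads, was sparse in T cells. WT CTLs were at 9.99 CPM and RARα-KO CTLs at 9.13 CPM, and RARα-TG CTLs, with 12 UMIs, at 22.4 CPM. The log2 ratio of RARα-TG to WT was 1.17 (0.13 to 2.08), and that of RARα-KO was -0.13 (-0.65 to 0.40). RARα-TG also had the highest value in Foxp3+ CD4 T cells (18.3, 22.5 and 32.7 CPM in WT, RARα-KO and RARα-TG) and in Foxp3- CD4 T cells (11.4, 11.4 and 25.5 CPM), but the intervals of those ratios included 0.

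The highest values of Tgfbr1 among the 5 classes were in macrophages, with 43.4, 35.3 and 48.8 CPM. Their log2 ratio to CTLs was 2.12 in WT and 1.95 in RARα-KO, both with intervals above 0, and 1.12 in RARα-TG, where the interval included 0. Sparc+ cells were at 15.03, 14.6 and 18.7 CPM. Tgfbr1 did not differ beyond counting error between RARα-KO and WT in any of the 5 classes.

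Tgfbr2, the receptor that binds the ligand, had another order of classes than Tgfbr1. CTLs of WT, RARα-KO and RARα-TG were at 141, 149 and 189 CPM, and Foxp3- CD4 T cells at 137, 151 and 123 CPM. These 2 subsets were close to each other, with log2 ratios of Foxp3- cells to CTLs of -0.04, 0.02 and -0.62, of which the last had an interval below 0. Foxp3+ CD4 T cells were lower, at 46.7, 77.8 and 55.8 CPM. Their log2 ratio to Foxp3- CD4 T cells was -1.55, -0.96 and -1.14, with all 3 intervals below 0. Macrophages were at 29.5, 28.9 and 28.4 CPM and Sparc+ cells at 31.8, 38.9 and 24.0 CPM. Within Sparc+ cells, Tgfbr2 was at 72.4 CPM (61.9 to 84.3) in the Col3a1 and Dcn cells and at 25.7 CPM (22.8 to 28.9) in the others, over all genotypes. The ligand-binding receptor was thus lower in Foxp3+ CD4 T cells, macrophages and Sparc+ cells than in CTLs of each genotype.

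Between genotypes, Tgfbr2 in RARα-TG CTLs was 1.34-fold above WT (log2 ratio 0.43, 0.11 to 0.73). In RARα-KO Foxp3+ cells it was 1.67-fold above WT, with an interval that just included 0 (log2 ratio 0.74, -0.01 to 1.5). Within the cluster led by Foxp3, Lrrc32 and Tnfrsf4, that log2 ratio was 0.81 (0.02 to 1.61), from 28 WT and 38 RARα-KO UMIs in the whole subset. In RARα-KO CTLs, the log2 ratio was 0.08 (-0.05 to 0.21).

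Smad2, a Smad that the receptor phosphorylates, varied little. It was at 38.0, 43.2 and 46.7 CPM in CTLs of WT, RARα-KO and RARα-TG, at 26.7, 26.6 and 31.3 CPM in Foxp3+ CD4 T cells, at 45.6, 45.7 and 57.3 CPM in Foxp3- CD4 T cells, and at 46.7, 47.1 and 61.4 CPM in Sparc+ cells. None of these 8 ratios to WT excluded 0. In macrophages it was at 33.0 CPM in WT and 41.7 CPM in RARα-KO, and the 35 RARα-TG macrophages held 1 UMI (4.06 CPM). That ratio of 0.123 to WT had a counting interval, on the log2 scale, of -8.40 to -0.37.

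Smad3, the other receptor-regulated Smad of this pathway, showed the largest genotype ratio among the 9 genes in CTLs. WT CTLs were at 8.03 CPM (45 UMIs), RARα-KO CTLs at 10.6 CPM (86 UMIs) and RARα-TG CTLs at 39.3 CPM (21 UMIs). The RARα-TG interval (24.3 to 60.0 CPM) lay above those of WT (5.86 to 10.7) and RARα-KO (8.49 to 13.1). The log2 ratio of RARα-TG to WT was 2.29 (1.47 to 3.07), or 4.89-fold.

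In the CD4 subsets Smad3 rested on 4 to 14 UMIs per genotype, and no ratio excluded 0. It was at 10.0, 8.19 and 10.9 CPM in Foxp3+ and at 11.4, 16.0 and 23.3 CPM in Foxp3- cells. Macrophages held 2, 7 and 5 UMIs. Sparc+ cells were at 5.09, 6.37 and 2.67 CPM, below CTLs in all 3 genotypes. A difference in Smad3 outside CTLs was not detectable at this depth.

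Smad4, the shared partner of the receptor-regulated Smads, was at 38.2, 41.3 and 61.7 CPM in WT, RARα-KO and RARα-TG CTLs. The log2 ratio of RARα-TG to WT was 0.69 (0.12 to 1.23), and it turned to -0.17 when each cell was thinned to 1000 UMIs. Sparc+ cells went the other way, with 67.2, 56.1 and 34.7 CPM. The ratios there were -0.26 (-0.48 to -0.04) for RARα-KO and -0.95 (-1.87 to -0.17) for RARα-TG, the latter from 13 UMIs. In Foxp3+ (46.7, 51.2 and 40.8 CPM) and Foxp3- CD4 T cells (66.1, 49.1 and 57.3 CPM) and in macrophages (33.0, 43.9 and 40.6 CPM), no ratio excluded 0.

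Smad7, the inhibitory Smad, was at 138 CPM (129 to 149) in WT CTLs, and at 176 CPM (167 to 185) in those of RARα-KO and 224 CPM (186 to 268) in those of RARα-TG. Its log2 ratio to WT was 0.34 (0.22 to 0.47) for RARα-KO and 0.70 (0.41 to 0.98) for RARα-TG. Both groups of CTLs were above WT without overlap of the intervals. The RARα-KO ratio moved with the set of CTLs and their weights: it was -0.23 when each clonotype had equal weight and 0.06 outside the cluster led by Gzmf, Gzmd and Gzme.

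In Foxp3+ CD4 T cells Smad7 was at 163, 221 and 214 CPM, so that both altered genotypes were above WT, with log2 ratios of 0.44 (0.03 to 0.85) and 0.39 (0.01 to 0.77). In Foxp3- CD4 T cells it was at 200.5, 137 and 191 CPM, and RARα-KO was below WT, with a log2 ratio of -0.55 (-0.96 to -0.13). The RARα-KO ratio of Smad7 thus had opposite signs in the 2 CD4 subsets, a difference between subsets that was not tested. Within the Foxp3- cluster led by Tnfsf8, Tnfsf11 and Cd4, it was -1.05 (-1.63 to -0.46), and the ratio of RARα-TG was -0.98 (-1.79 to -0.22). Macrophages were at 72.9, 106 and 81.3 CPM and below CTLs in all 3 genotypes, with log2 ratios of -0.93, -0.73 and -1.46. Sparc+ cells were at 94.8, 92.4 and 144 CPM. The log2 ratio of RARα-TG to WT in Sparc+ cells was 0.60 (0.18 to 1.0), but it was -0.91 when cells were thinned to 1000 UMIs.

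Ski, a corepressor of Smad targets, was at 30.7 CPM in WT CTLs, close to the 34.2 CPM of RARα-KO, and at 59.8 CPM in RARα-TG. For RARα-TG, the log2 ratio to WT was 0.96 (0.37 to 1.51). It was at 30.02, 36.9 and 25.9 CPM in Foxp3+ CD4 T cells, at 31.9, 44.6 and 50.9 CPM in Foxp3- CD4 T cells and at 36.4, 33.2 and 28.4 CPM in macrophages, where no ratio excluded 0. In Sparc+ cells it was at 25.8, 26.4 and 45.4 CPM, with a log2 ratio of RARα-TG to WT of 0.82 (0.01 to 1.53) from 17 UMIs. Ski was thus above WT in RARα-TG CTLs and Sparc+ cells and not distinguishable from it in the other classes.

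Skil, the related corepressor, differed more between classes than between genotypes. CTLs were at 164, 168 and 161 CPM in WT, RARα-KO and RARα-TG. Foxp3- CD4 T cells were higher, at 223, 296 and 252 CPM, with log2 ratios to CTLs of 0.45, 0.82 and 0.65 and all 3 intervals above 0. Foxp3+ CD4 T cells, at 233, 197 and 238 CPM, had ratios to CTLs of 0.51, 0.23 and 0.57, of which that of RARα-KO included 0. Macrophages were at 181, 143 and 146 CPM. Sparc+ cells were the lowest class, at 64.6, 38.7 and 64.1 CPM. Between genotypes, Skil in RARα-KO was above WT in Foxp3- CD4 T cells (log2 ratio 0.41, 0.07 to 0.76) and below it in Sparc+ cells (-0.74, -1.0 to -0.49).

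**Figure D2:**
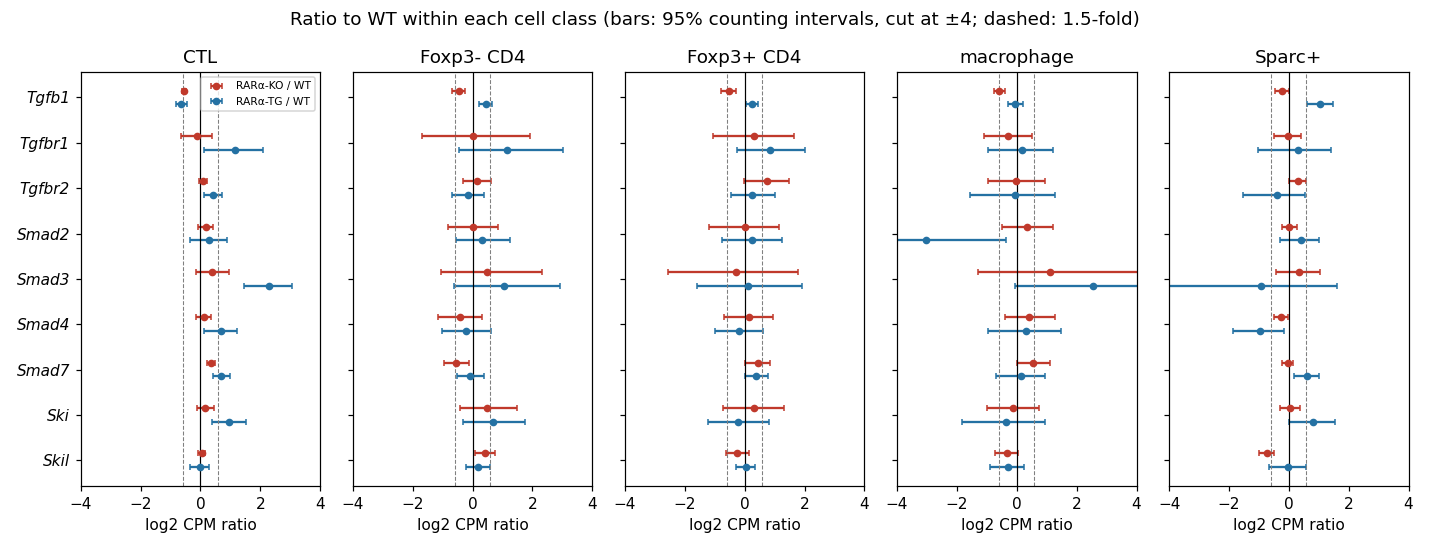
Log2 CPM ratio to WT (horizontal axes) of each of the 9 genes in each cell class for RARα-KO (red) and RARα-TG (blue), with 95% counting intervals as bars, drawn to ±4, and dashed lines at 1.5-fold. In CTLs, 5 genes lie above 1.5-fold and Tgfb1 below it in RARα-TG, while in RARα-KO no gene passes 1.5-fold.

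The 9 genes were next set against all genes measured in the same cells. A gene was counted as past the fold at a CPM ratio of 1.5 or more in either direction, among genes with 0.1 UMIs or more per cell in at least 1 genotype. In RARα-TG CTLs, all 9 genes passed that filter on low counts, 5 were higher (Tgfbr1, Smad3, Smad4, Smad7 and Ski) and 1 was lower (Tgfb1). Over all 6572 genes that passed, 13.6% were higher and 14.7% lower. The median log2 ratio was 0.69 over the 9 genes and 0.0026 over all genes tested. Tgfbr1 and Smad3 passed the filter only through RARα-TG, where they were high, so that their part in this count follows from the filter. Of the 7 genes that passed in both genotypes, 3 were higher and 1 lower, with a median of 0.43. The shares given above are over genes that passed in at least 1 genotype, so they are not a like background for these 7. Passing through the higher genotype alone also holds for Tgfbr1 in RARα-TG CD4 T cells of both subsets, for Smad3 and Smad2 in RARα-TG macrophages, and for Smad3 in RARα-TG Sparc+ cells.

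In RARα-KO CTLs, 7 of the 9 genes passed the filter (not Tgfbr1 and Smad3) and 0 were past the fold, where 4.24% of all genes were higher and 2.92% lower. The Tgfb1 ratio of 1.47-fold lay just inside the threshold. In RARα-KO Foxp3+ CD4 T cells, 1 of 8 genes was higher (Tgfbr2) and 0 were lower, against 12.7% higher and 12.2% lower over all genes. In RARα-TG Foxp3+ CD4 T cells, 1 of 8 was higher (Tgfbr1) and 0 lower, against 13.3% and 10.9%. These shares were near those of all genes.

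In RARα-KO Foxp3- CD4 T cells, 0 of 7 genes were past the fold, where 9.60% of all genes were higher and 14.4% lower. In RARα-TG Foxp3- CD4 T cells, 2 of 8 were higher (Tgfbr1 and Ski), against 12.2% higher and 15.0% lower. In RARα-KO macrophages, 0 of 8 genes were past the fold, against 15.6% higher and 14.9% lower, and in RARα-TG macrophages 1 of 9 was higher (Smad3) and 1 lower (Smad2), against 21.6% and 22.5%. In RARα-KO Sparc+ cells, 1 of 9 was lower (Skil) and 0 higher, against 6.60% higher and 3.69% lower. In RARα-TG Sparc+ cells, 3 of 9 were higher (Tgfb1, Smad7 and Ski) and 2 lower (Smad3 and Smad4), against 17.4% and 18.5%. Of the genes that passed in both genotypes, 4 of 7 were past the fold in RARα-TG CTLs and 4 of 8 in RARα-TG Sparc+ cells. A share among all genes that passed in both genotypes is not given here, so those counts have no background of the same kind. Over these 9 comparisons, the median log2 ratio of the genes that passed ranged from -0.08 in RARα-KO macrophages to 0.31 in RARα-TG Sparc+ cells, and that of all genes tested from -0.05 to 0.02.

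The CTLs of the 3 genotypes differed in make-up, and the levels of the 9 genes varied between CTL clusters. The cluster led by Gzmf, Gzmd and Gzme, which encode granzymes, held 331 of the WT CTLs (39.3%), 99 of the RARα-KO CTLs (8.39%) and 2 of the RARα-TG CTLs (1.87%). The cluster led by Cd7, Gramd3 and S1pr1 held 17.1%, 15.2% and 58.9% of them. Neither the 9 genes nor the wider list of pathway genes was used to form the clusters.

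In WT CTLs, Smad3 was at 29.0 CPM in the Cd7 cluster and 25.9 CPM in the cluster led by S1pr1, Tcf7 and Ramp3, but at 1.49 CPM in the Gzmf cluster. Smad7 was likewise at 304 CPM in the Cd7 cluster and 90.8 CPM in the Gzmf cluster, Ski at 68.8 and 24.2 CPM, and Skil at 257 and 133 CPM. Tgfb1 followed another order, from 240.5 CPM in the S1pr1 and Tcf7 cluster to 802 CPM in the Cd7 cluster, 873 CPM in the Gzmf cluster and 1040.3 CPM in the cluster led by Xcl1, Ifng and Ccl4. Tgfbr2 ranged from 65.7 CPM in the cluster led by histone gene Hist1h1b to 226 CPM in the S1pr1 and Tcf7 cluster. Ligand and Smads were thus not highest in the same CTLs.

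**Figure D3:**
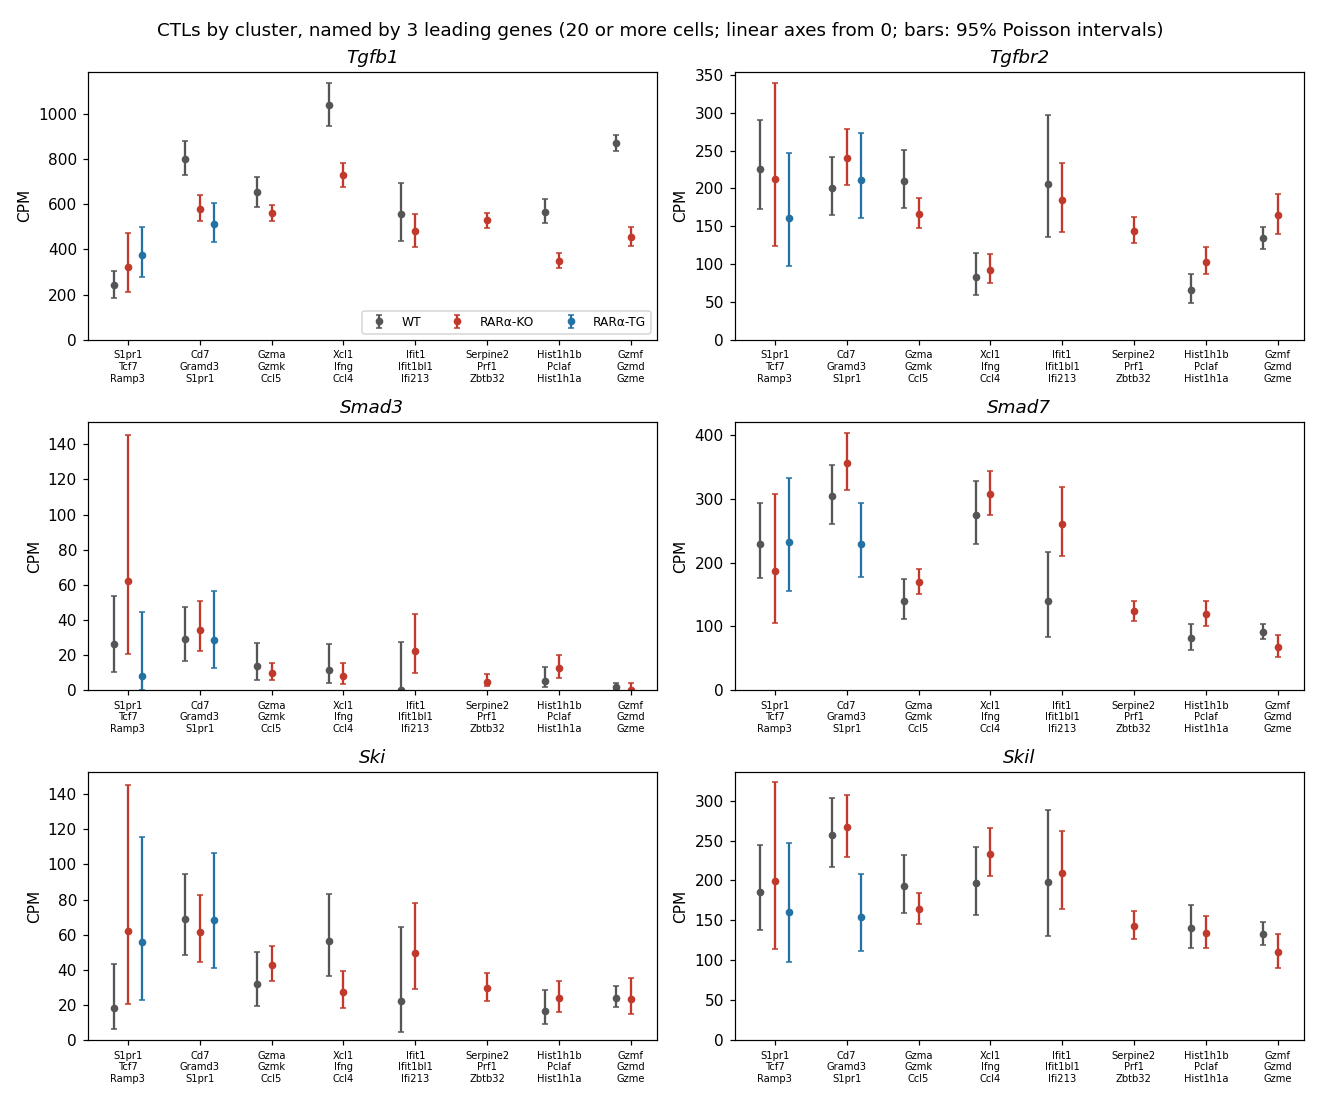
Level in CPM (vertical axes, linear from 0) of 6 of the genes by CTL cluster (horizontal axes, named by 3 leading genes) in WT (gray), RARα-KO (red) and RARα-TG (blue), for clusters with 20 or more CTLs of a genotype and with 95% Poisson intervals as bars. Smad3, Smad7 and Ski in WT are higher in the Cd7 cluster than in the Gzmf cluster, and Tgfb1 in RARα-KO lies below WT in most clusters.

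Within the Cd7 cluster, which held 144 WT and 63 RARα-TG CTLs, the intervals of 7 of the 9 ratios of RARα-TG to WT included 0. The log2 ratio of Smad3 was -0.01 (-1.45 to 1.29) there, that of Ski was -0.01, that of Tgfbr2 was 0.07, that of Smad2 was 0.16, that of Tgfbr1 was 0.66 (-0.88 to 2.16), and those of Smad4 and Smad7 were -0.57 and -0.41 (-0.85 to 0.02). Tgfb1 remained lower, at -0.65 (-0.93 to -0.37), and Skil was lower as well, at -0.74 (-1.27 to -0.24). In the S1pr1 and Tcf7 cluster, with 64 WT and 21 RARα-TG CTLs, the Tgfb1 ratio had the opposite sign, at 0.65 (0.07 to 1.21). Ski was at 1.60 (-0.27 to 3.60), Smad3 at -1.69 (-7.19 to 1.27) and Smad7 at 0.02 (-0.67 to 0.68) in that cluster, with intervals too wide to place these genes. Over all CTLs outside the Gzmf cluster, a set chosen after seeing the data, 3 of the 9 genes were past the fold in RARα-TG instead of 6. The share of all genes past the fold in that set is not given here, so this count has no background. The ratios there were 0.85 for Tgfbr1, 1.51 for Smad3, 0.73 for Ski and -0.46 for Tgfb1. Smad3, Ski and Tgfbr1 were the genes past the fold outside the Gzmf cluster. Over all CTLs, Smad3 and Tgfbr1 passed the filter only through RARα-TG, where they were high, so that their part in this count may follow from the filter. The CTLs left there still differed in make-up, since the Cd7 cluster held 17.1% of all WT and 58.9% of all RARα-TG CTLs. Changes within a CTL state and changes in the number of CTLs per state cannot be told apart over the CTLs as a whole.

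The lower Tgfb1 of RARα-KO CTLs was in contrast present within clusters. The log2 ratio to WT was below 0 in 6 of the 7 clusters with 20 or more CTLs of both genotypes, and its interval lay below 0 in 5 of them. It was -0.94 (-1.09 to -0.79) in the Gzmf cluster, -0.70 (-0.89 to -0.51) in the Hist1h1b cluster, -0.51 in the Xcl1 cluster, -0.47 (-0.67 to -0.27) in the Cd7 cluster and -0.22 (-0.39 to -0.05) in the cluster led by Gzma, Gzmk and Ccl5. The exception was the S1pr1 and Tcf7 cluster, with 0.43 (-0.28 to 1.11) from 20 RARα-KO CTLs. Between RARα-KO and WT, no other gene of the 9 had intervals on the same side of 0 in more than 2 of these clusters.

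**Figure D4:**
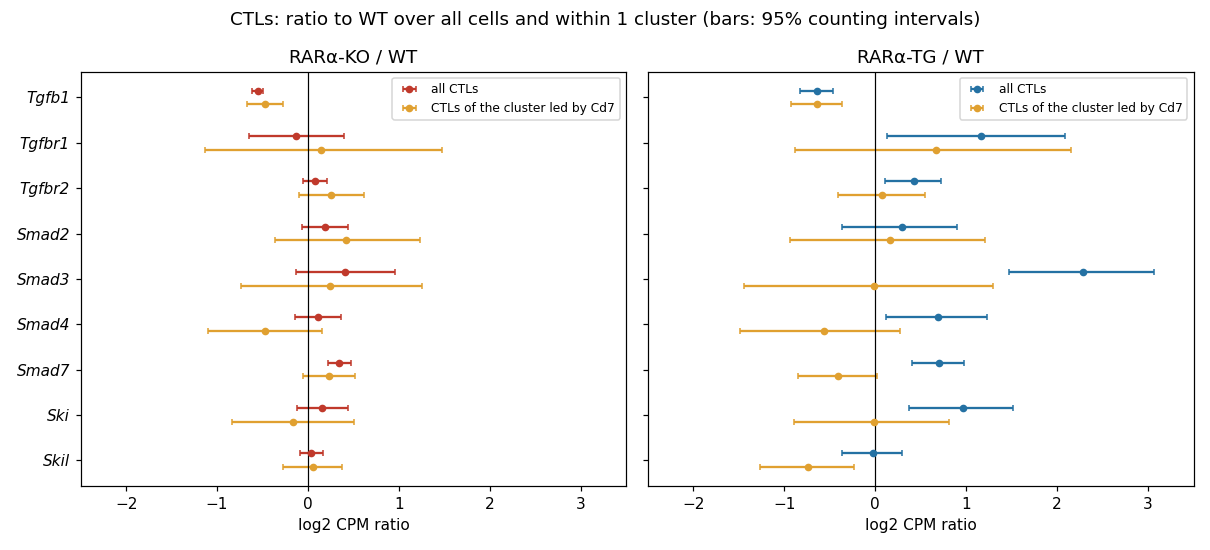
Log2 CPM ratio to WT (horizontal axes) of the 9 genes over all CTLs (red for RARα-KO, blue for RARα-TG) and over CTLs of the cluster led by Cd7 (orange), with 95% counting intervals as bars. Tgfb1 is below WT in both sets of CTLs, while the RARα-TG ratios of Smad3 and Ski are near 0 within the cluster.

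Clonal expansion was compared within each genotype, since the T cell receptor library gives clonotype sizes without using any gene count. Clonotype size was counted over all T cells of a genotype. In WT, 467 CTLs were in 19 clonotypes with 10 or more T cells. They had more Tgfb1 than the 122 CTLs that were alone in their clonotype, with 792 and 522 CPM. The log2 ratio was 0.60 (0.44 to 0.77). Smad7 went the other way, with 127 CPM in expanded and 182 CPM in single CTLs (-0.53, -0.82 to -0.22). For the other 7 genes, the interval of the WT ratio included 0. In RARα-KO, with 681 CTLs of 24 expanded clonotypes and 94 single CTLs, neither gene differed beyond counting error: the ratio was 0.16 (-0.03 to 0.35) for Tgfb1 and 0.03 (-0.27 to 0.35) for Smad7. With equal weight per cell instead of per UMI, the Tgfb1 ratio was 0.80 in WT and 0.49 in RARα-KO, so that the size of the RARα-KO ratio depended on the weights. A difference between the genotypes in these ratios was not tested, cells of 1 clonotype are not independent of each other, and RARα-TG had too few expanded CTLs for this comparison.

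A list of 50 further genes of the pathway was read in the same way, against the same shares of all genes. In RARα-KO CTLs, 15 of the 50 passed the filter, 1 was higher and 2 were lower, with a median log2 ratio of 0.14. Over all genes, 4.24% were higher and 2.92% lower. Both lower genes, Itgae and Nrros, passed through WT alone, where they were high. Cdkn1a, a cell cycle inhibitor that TGF-β can induce, was at 76.5 CPM in WT and 244 CPM in RARα-KO (log2 ratio 1.67, 1.52 to 1.83). Itgae, which encodes the CD103 integrin of tissue-resident T cells and is a target of TGF-β, was at 30.2 CPM in WT and 13.8 CPM in RARα-KO (-1.13, -1.48 to -0.77). Nrros, which anchors latent TGF-β on myeloid cells, was lower by a log2 ratio of -0.78.

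RARα-TG CTLs had 16 of the 50 genes past the filter, with 5 higher and 4 lower and a median log2 ratio of 0.23. Over all genes, 13.6% were higher and 14.7% lower. Nrros, Tgif2 and Ldlrad4 passed through 1 genotype alone, so that their part in these counts follows from the filter. Itgae was at 82.2 CPM against 30.2 CPM in WT (1.45, 0.93 to 1.93), the opposite of RARα-KO. Pmepa1, a negative regulator of the pathway that TGF-β induces, had a log2 ratio of 1.31 (1.10 to 1.5). Ldlrad4, another negative regulator, had 2.35 (1.73 to 2.94) from 36 UMIs in RARα-TG, and passed the filter only through RARα-TG, where it was high. Among other negative regulators, Smad7 had 0.70, Ski 0.96 (0.37 to 1.51) and Skil -0.03 (-0.36 to 0.29), and Bambi, Smad6, Smurf1 and Smurf2 did not pass the filter. Of the further regulators in the list, Tgif2 was among the higher genes and Fkbp1a among the lower ones. Ep300, a histone acetyltransferase that serves Smads as a coactivator, had a ratio of 1.10, and Itgav, an integrin chain that takes part in the release of TGF-β, had -1.29. As for the 9 genes, the make-up of the CTLs differed beside these values, and its part was not tested for the list.

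In RARα-KO Foxp3+ CD4 T cells, 19 genes of the list passed, 6 were lower and 0 higher, with a median log2 ratio of -0.35. Over all genes, 12.2% were lower and 12.7% higher. Of the 6, Smurf1, Bambi and Ldlrad4 passed the filter through 1 genotype alone. The lower genes included Itgae (270.2 CPM in WT and 86.0 CPM in RARα-KO, -1.65, -2.18 to -1.15) and Lrrc32, which displays latent TGF-β on regulatory T cells (188 and 102 CPM, -0.88, -1.39 to -0.39). Bambi, a decoy receptor, had a ratio of -1.76 and Ldlrad4 of -2.29, the latter from 2 UMIs in RARα-KO, and both passed the filter through WT alone. In RARα-TG Foxp3+ CD4 T cells, 21 passed, 3 were higher and 1 lower, against 13.3% and 10.9% of all genes. Bmpr1a, among the higher genes, passed through 1 genotype alone. Furin, a protease that processes the TGF-β precursor, was at 50.03 CPM in WT and 81.7 CPM in RARα-TG (0.71, 0.05 to 1.39).

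Itgae was also lower in RARα-KO Foxp3- CD4 T cells (-2.19) and higher in RARα-TG Foxp3- CD4 T cells (1.39). For RARα-KO, 1 gene of 19 was higher and 5 lower, against 9.60% and 14.4% of all genes. For RARα-TG, 3 of 20 were higher and 6 lower, against 12.2% and 15.0%. In RARα-KO, 4 of the 5 lower genes, Itgae and Lrrc32 among them, passed the filter through WT alone. In RARα-TG, 5 of the genes past the fold, Lrrc32, Nrros, Smurf2, Tgif2 and Ldlrad4, passed the filter through 1 genotype alone. Lrrc32 was below WT in both, with ratios of -3.50 from 3 UMIs and -1.38 from 7 UMIs, and Cdkn1a was above WT in RARα-KO (1.02, 0.65 to 1.41). Itgae lay below WT in RARα-KO in all 3 T cell subsets. In CTLs and Foxp3- cells, however, it passed the filter through WT alone, where it was high, so these 2 subsets add no support. The Foxp3- cells of WT, RARα-KO and RARα-TG differed in make-up, with summed markers of regulatory T cells of 1285, 731 and 1330 CPM. The cluster led by Rln3, Klrg1 and Laptm4b held 1 of 95, 0 of 166 and 20 of 111 of them, in the same order. The part of this make-up in the Itgae and Lrrc32 ratios of Foxp3- cells was not tested.

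In RARα-KO macrophages, 27 genes of the list passed, 5 were higher and 7 lower, against 15.6% and 14.9% of all genes. Tgfb3, Eng, Bmpr2, Smad1, Smurf1, Smurf2 and Bambi passed through 1 genotype alone, so that their part in these counts follows from the filter. Acvrl1, a type I receptor, was at 52.1 CPM in WT and 118 CPM in RARα-KO (1.18, 0.58 to 1.81). Pmepa1 was at 179 and 83.5 CPM (-1.10, -1.54 to -0.66). In RARα-TG macrophages, 25 passed, 5 were higher and 6 lower, against 21.6% and 22.5% of all genes. Smad1 and Smurf1 passed there through 1 genotype alone. Inhba, which encodes the activin A subunit, was at 2265 CPM in WT and 463 CPM in RARα-TG (-2.29, -2.58 to -2.01), and Thbs1, a secreted activator of latent TGF-β, was at 1458 and 3137 CPM (1.11, 0.96 to 1.25). By hashtag share, 22 of the 77 WT macrophages and 73 of the 273 WT Sparc+ cells were kept. The ratios of list genes under that assignment are not given here. Inhba was also lower in RARα-KO Sparc+ cells, at 45.3 CPM against 95.4 CPM in WT (-1.08, -1.31 to -0.85). In that comparison 39 of the 50 passed, 1 was higher and 2 lower, against 6.60% and 3.69% of all genes. The higher gene, Tgfb2, passed through 1 genotype alone. In RARα-TG Sparc+ cells 41 passed, 11 were higher and 2 lower, among 19 cells, against 17.4% and 18.5% of all genes. Tgfb2, Itgae and Cdkn2b passed there through 1 genotype alone. Itgae stood there at 24.0 CPM against 0.925 CPM in WT, beside the T cell markers given above.

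The profile of each gene over the 14 sums of a cell class in a genotype with 20 or more cells was compared with 5924 genes, as a description, since all sums come from 1 library and differ in depth. Tgfb1 was most like Arpc5 (Pearson r = 0.978) and Dgkz (0.977), Tgfbr2 like Fasl (0.965) and Ppp3cc (0.961), and Tgfbr1 like Atp6v0d1 (0.927) and Cebpb (0.918). Skil was most like Cytip (0.962) and Nfkb1 (0.959), and Smad7 like Ube2h (0.954) and Zfp53 (0.95). Smad2 was most like Nub1 (0.887) and Dedd (0.875), Smad3 like Gapvd1 (0.826) and Ubald1 (0.815), Smad4 like Ythdf1 (0.844) and Skp1a (0.823), and Ski like Smchd1 (0.835) and Btaf1 (0.829). Among the 9 genes themselves, the ligand Tgfb1 and Skil were closest (0.882), and the receptors Tgfbr1 and Tgfbr2 had opposite profiles (-0.619).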

How the data were processed

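Single-cell 5′ RNA-seq with hashtag antibodies and T cell receptor (TCR) sequencing was read from 1 pooled library of 3 genotypes. The authors aligned reads to mm10 with Cell Ranger. The version is 6.1.0 per the labels and methods, but another major version stands in the matrix header. What they deposited are raw UMI counts of every gene in each of 730308 barcodes, 46394322 gene UMIs in all, with no normalization, together with hashtag UMI counts and a table of TCR contigs. The labels name the spleen and naive CD8 T cells that were activated, whereas their protocol describes tumors. The protocol was followed.

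The 9 genes and all lists were chosen with earlier results of these data known. Cells were called with the steps of Cell Ranger in Python 3.11.15 with scipy 1.17.1, pandas 2.3.3 and numpy 2.4.6, which kept 5585 cells with 96.4% of UMIs. Genotypes were assigned with HTODemux (Seurat 5.3.0, R 4.3.3, quantile 0.99), giving 4925 singlets, 426 doublets and 234 cells without a hashtag. Doublets between genotypes were removed, those within a genotype remain, and neither a doublet caller nor a mitochondrial filter was used. Cells were clustered with scanpy 1.11.5 (Leiden, resolution 1, 30 principal components, 2000 variable genes without the 9 genes, the 50 pathway genes and TCR genes). T cell clusters had a clonotype in over 50% of barcodes. Macrophages and Sparc+ cells were 1 cluster each.

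For each class of a genotype, the UMIs of a gene were summed over cells and scaled to the sum over all genes (CPM). A 5′ count does not scale with transcript length or allow levels of different genes to be ranked, so levels were compared within a gene. Intervals are 95% exact Poisson for levels and exact binomial for ratios, and cover counting error only. Where no UMI was counted, a floor of 3 UMIs was used for ratios. With 1 sample per genotype there is no test. All 9 genes are named. Of the pathway list, up to 5 genes per comparison are named, by size of the log2 ratio, among those past 1.5-fold with an interval excluding 0. The ratio code was tested on simulated counts. Free RNA in the barcodes at ranks 45000 to 90000 held Tgfb1 at 507 CPM and Cd3e at 544 CPM, so a part of low levels may be free RNA, and this was not subtracted. Gene positions are from the RefSeq annotation of GRCm38.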

Additional observations from a re-analysis of the deposited data

Results flagged for a closer look

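The ratio of RARα-TG to WT had opposite signs in CTLs and Sparc+ cells for Tgfb1 and Smad4, with counting intervals on opposite sides of 0. Tgfb1 had a log2 ratio of -0.64 in CTLs and 1.06 in Sparc+ cells. Smad4 had a log2 ratio of 0.69 in CTLs and -0.95 in Sparc+ cells. The difference between the classes was not tested, since each genotype is 1 sample, and the RARα-TG Sparc+ cells number 19.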

How the results depend on the processing

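Each genotype is 1 sample, so no replicate could be left out. No paired analysis was possible because each genotype is 1 sample and shares no replicate number with another. Of the ratios under other settings, 1631 stayed within the counting interval and 112 moved beyond it, while 3 that had been past 1.5-fold changed sign, all 3 on thinning each cell to 1000 UMIs: Smad4 in RARα-TG CTLs (-0.17), Smad7 in RARα-TG Sparc+ cells (-0.91) and Smad7 in Sparc+ cells against CTLs of RARα-KO (0.012). Among ratios under 1.5-fold whose interval excluded 0, another 4 changed sign: Smad7 in RARα-KO CTLs with equal weight per clonotype (-0.23), Tgfbr2 in RARα-KO Sparc+ cells at Leiden resolution 2 (-0.08), and, when thinned, Smad4 in RARα-KO Sparc+ cells (0.09) and Smad2 in Sparc+ cells against CTLs of WT (-0.34). Of the counts of genes past the fold, 109 stayed within 1.5 times the value reported and 39 did not.

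Counts of the 9 genes that moved are given here by setting. The number of genes that passed the filter and the share of all genes past the fold under each setting are not given. The counts therefore show only how they depend on the processing and are not a result about the 9 genes. With genotype by the largest hashtag share they were 1 in RARα-KO CTLs, 0 in RARα-TG Foxp3+ and 1 in RARα-KO Foxp3- CD4 T cells, 3 in RARα-KO and 5 in RARα-TG macrophages, and 0 and 2 in Sparc+ cells. With T cells taken by their own TCR they were 1 in RARα-KO Foxp3- CD4 T cells, 1 in macrophages of each genotype and 3 in RARα-TG Sparc+ cells. Without mitochondrial, ribosomal and receptor genes in the total they were 1 in CTLs and 1 in macrophages of RARα-KO. Thinned to 1000 UMIs they were 4 and 4 in Foxp3+ CD4 T cells, 3 and 0 in Foxp3- CD4 T cells, 5 and 4 in macrophages and 5 and 2 in Sparc+ cells, RARα-KO first. With equal weight per cell they were 0 in Foxp3+ CD4 T cells, 3 in Foxp3- CD4 T cells and 1 in macrophages of RARα-KO. At a fold of 2 they were 2 in RARα-TG CTLs, 0 and 0 in Foxp3+, 1 in RARα-TG Foxp3- CD4 T cells, and 0 and 1 in Sparc+ cells. Without the filter on low counts it was 1 in RARα-KO macrophages. For the 50 pathway genes, the counts were 7 in RARα-KO macrophages by hashtag share, 7 in RARα-TG macrophages when thinned, 5 and 5 in macrophages at a fold of 2, and 15 and 18 in CTLs without the filter. Outside the Gzmf cluster, a setting chosen after seeing the data, 3 of the 9 genes in RARα-TG CTLs and 5 pathway genes in RARα-KO CTLs were past the fold. The cause of these changes was not tested, apart from the higher threshold and the smaller number of genes or cells that a setting makes by construction. The depth limits Smad3 and Tgfbr1 most, with at most 14 and 24 UMIs per genotype in the CD4 subsets.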

Other observations

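In smaller clusters outside the classes compared above, the 9 genes had other profiles, given here over the 3 genotypes together. In a cluster of 49 cells led by Ly6d and Siglech, Tgfbr1 was at 127 CPM (95% Poisson interval 91.2 to 171) and Tgfbr2 at 178 CPM (135 to 229), so that both receptors stood high in the same cells, unlike in CTLs and macrophages. Tgfb1 was at 313 CPM there. In a cluster of 52 cells led by H2-Eb1 and Ccl22, Smad7 was at 57.1 CPM (38.2 to 82.0), Tgfbr2 at 19.7 CPM and Ski at 7.87 CPM, while Skil was at 228 CPM (189 to 274).

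In a cluster of 27 cells led by Gzmc and Klrb1c, the latter a gene of NK cells, Tgfb1 was at 984 CPM (837 to 1149) and Tgfbr2 at 155 CPM. In a cluster of 57 cells led by the neutrophil genes S100a9 and S100a8, 0 UMIs of Smad2 were counted, against 9 UMIs of Ski (79.0 CPM, 36.1 to 149.9) and 37 of Tgfb1 (325 CPM). The upper limit for Smad2 was 32.4 CPM, close to its level in macrophages, so that its absence was not detectable at this depth.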
